A study of Mus musculus with 12 samples.

Results

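Interferon-stimulated genes are the genes whose RNA rises when a cell senses interferon, and 36 of them were followed here in mouse brown adipose tissue. The 36 genes were taken from a list of named interferon response genes, and no threshold on the values of these libraries was used to pick them. All 36 were found among the 24452 genes of the deposited expression table, and 35 were above 0 in all 12 libraries. A mean of at least 0.5 RPKM (reads scaled to transcript length and library size) was needed for testing, which 12249 genes reached, 35 of the 36 among them. Oas3 was under that filter, at 0 to 0.0734 scaled RPKM in ERRKO_CL libraries, 0.164 to 0.339 in ERRKO_PBS, 0.0177 to 0.0865 in WT_CL and 0.142 to 0.272 in WT_PBS. By role the list holds 4 nucleic acid sensors, 3 transcription factors, 3 genes of the ISG15 system, 13 antiviral effectors, 4 other induced genes, 3 genes of ADP-ribosylation, 2 guanylate-binding proteins and 4 genes of antigen presentation.

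Type I interferons bind a shared receptor, whose kinases phosphorylate STAT proteins. STAT2 and IRF9 are subunits of the complex ISGF3, which binds the interferon-stimulated response element (ISRE) in the promoters of its targets. Interferon gamma acts through a different element, the gamma-activated site (GAS), and is the main inducer of immunoproteasome, antigen presentation and guanylate-binding protein genes. In fat, as in other tissues, these genes can be expressed by adipocytes and by resident immune, vascular and stromal cells.

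The study asked what the nuclear receptors ERRα and ERRγ do in brown adipose tissue, with and without β3-adrenergic stimulation. Mice of all 4 groups were male C57BL/6J Bom animals that carried floxed ERRα and ERRγ alleles. They were housed at 30 °C on a 12-h light-dark cycle and fed chow. ERRKO_CL and ERRKO_PBS were ERRαγAd-/- mice, in which Cre driven by the adiponectin promoter, active in adipocytes, deletes both alleles, and other cell types keep them. WT_CL and WT_PBS were floxed littermates without Cre. ERRKO_CL and WT_CL mice received CL316,243, which activates the β3-adrenergic receptor, by intraperitoneal injection at 1 mg/kg daily at ZT 4 for 10 days, and ERRKO_PBS and WT_PBS mice received PBS. Injections began at 10 to 11 weeks of age, and tissue was collected at 12 weeks, 24 h after the final injection. Each group had 3 libraries of total RNA. Whether the libraries of a group are from different animals is not stated in the labels, so the p-values rest on a spread between samples that may be technical. The tissue is a mixture of cells, and fewer cells of a type and less RNA per cell cannot be told apart.

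Whole reads recovered from the second deposited table numbered 8478310 to 13263567 per library. The reads of a tested interferon-stimulated gene in a library ran between 3, for Mx1, and 24689, for B2m, and this precision covers counting error only. On the deposited RPKM scale the median of all genes tested was shifted by 0.53 (log2) in ERRKO_PBS against WT_PBS, 0.63 in ERRKO_CL against WT_CL, -0.26 in WT_CL against WT_PBS and -0.16 in ERRKO_CL against ERRKO_PBS. Levels are therefore given as scaled RPKM, after median-of-ratios scaling, and changes as log2 differences of scaled RPKM plus 0.5, with their SE, which understate the change of low genes. P-values come from limma with Benjamini-Hochberg adjustment over all 12249 genes, and a gene is said to rise or fall at an adjusted p under 0.05. Esrra, which encodes ERRα, stood at 6.73 to 8.73 scaled RPKM in ERRKO_CL and 5.25 to 8.89 in ERRKO_PBS, against 75.8 to 83.3 in WT_CL and 41.6 to 46.9 in WT_PBS, so its level followed the labels. Esrrg, which encodes ERRγ, stood at 6.40 to 8.14 in ERRKO_CL and 2.29 to 4.71 in ERRKO_PBS, against 5.63 to 8.15 in WT_CL and 4.41 to 8.26 in WT_PBS. Its ranges overlapped between ERRKO_CL and WT_CL and also between ERRKO_PBS and WT_PBS. Whether the deposited Esrrg value covers the deleted part of the gene is not given in the sources used here. Ucp1, the uncoupling protein that defines brown adipocytes, was present in every library, at 27.8 to 54.6 scaled RPKM in ERRKO_CL, 3.24 to 6.37 in ERRKO_PBS, 1845 to 2973 in WT_CL and 315 to 540.1 in WT_PBS.

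Some libraries stood apart. The third WT_PBS library was the highest of its group for 30 of the 36 genes, and the first ERRKO_PBS library the highest of its group for 24. Summed levels of 18 skeletal muscle markers were 2146 in the third ERRKO_CL library and 4033 in the third ERRKO_PBS library, against 47.3 to 997 in the other 10 libraries. Counts that change without one of these libraries are given beside the main ones. Leaving out a library changes the calls of all genes, and the shares of all genes in those fits are not given here. The comparisons share libraries: each group of 3 enters 2 of the 4 pairwise comparisons, so their results are not independent of each other.

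Interferon-stimulated genes were highest in ERRKO_PBS tissue. Of 36 genes, 33 had their highest group mean there, and the exceptions were Dhx58 and Rsad2, highest in WT_CL, and Ifi35, highest in WT_PBS. The lowest group mean lay in ERRKO_CL for 18 genes, in WT_CL for 17 and in ERRKO_PBS for 1. The shares of all genes with their highest or lowest group mean in each group are not given here. A median was taken for each library over the 36 genes, of log2 level minus the gene's mean over all libraries. It was -0.31, -0.24 and -0.40 in ERRKO_CL libraries and 0.63, 0.53 and 0.60 in ERRKO_PBS libraries. It was -0.28, -0.41 and -0.33 in WT_CL libraries and -0.14, -0.12 and 0.37 in WT_PBS libraries. By this measure all 3 ERRKO_PBS libraries lay above the other 9, the third WT_PBS library came next, and the CL316,243-treated libraries of both genotypes overlapped.

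**Figure D1:**
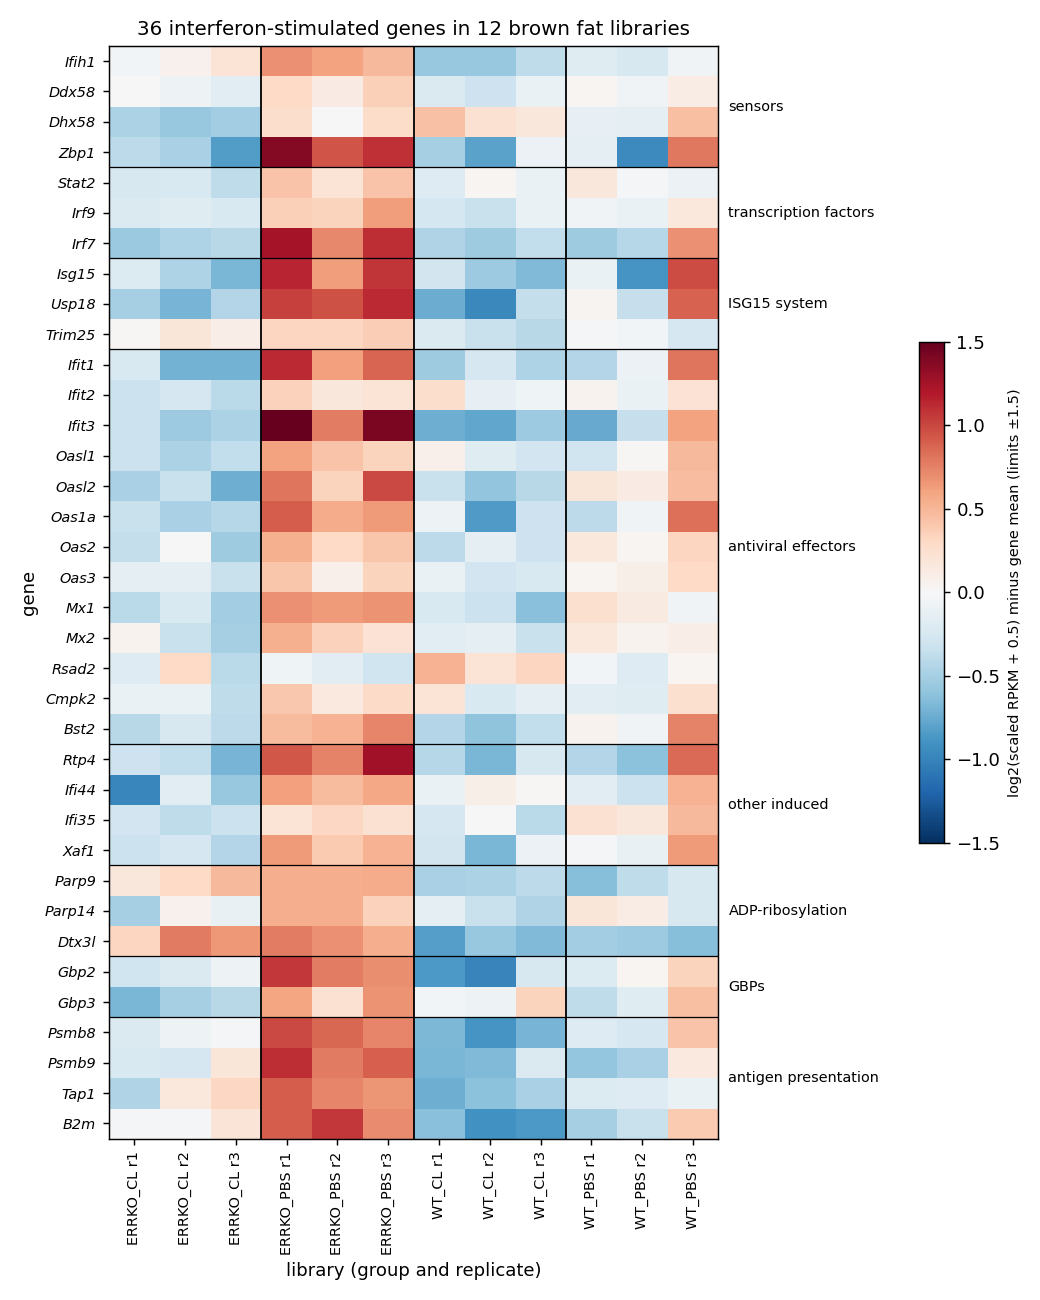
Each row is an interferon-stimulated gene, each column a library, grouped by ERRKO_CL, ERRKO_PBS, WT_CL and WT_PBS, and the colour gives log2(scaled RPKM + 0.5) minus the gene's mean, with the scale ending at ±1.5. The ERRKO_PBS columns are red for nearly all of the 36 genes, the third WT_PBS column is red for many, and Parp9 and Dtx3l are red in all ERRKO columns.

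Loss of ERRα and ERRγ under PBS was accompanied by a rise of 19 of the 35 tested interferon-stimulated genes, and none fell. Over all genes tested 15.6% rose in this comparison. The median change of the 35 genes was 0.54, against 0.00 for all genes, and single changes ran from -0.11 to 1.46. All 3 ERRKO_PBS libraries lay above all 3 WT_PBS libraries for 19 of the 35 genes, against 21.9% of all genes tested. On the deposited scale 35 of 35 rose, where 66.3% of all genes did, with a median of 1.04 against 0.53 for all genes. Without the third WT_PBS library 26 rose, without the first ERRKO_PBS library or the second WT_PBS library 13 rose in each case, and without the third library of both ERRKO groups 12 rose.

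CL316,243 in ERRKO tissue was accompanied by a fall of 30 of the 35 genes, and none rose. Of all genes tested 3.54% fell in this comparison. The median change was -0.85, against 0.03 for all genes, and the range ran from -1.74 to 0.07. All 3 ERRKO_CL libraries lay below all 3 ERRKO_PBS libraries for 33 of the 35 genes, all but Dtx3l and Rsad2, against 12.4% of all genes. Trim25, Rsad2, Cmpk2, Parp9 and Dtx3l did not pass the test. On the deposited scale 33 of 35 fell, where 13.7% of all genes did, with a median of -1.06 against -0.16. Without the first ERRKO_PBS library 18 fell, and without the third library of both ERRKO groups 11 fell.

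CL316,243 in WT tissue was accompanied by a fall of 10 of the 35 genes: Ifih1, Usp18, Oasl2, Oas2, Mx1, Bst2, Ifi35, Gbp2, Psmb8 and B2m. None rose. Of all genes tested 12.2% fell in this comparison. The median change was -0.37, against 0.02 for all genes. On the deposited scale 25 of 35 fell, where 38.1% of all genes did, with a median of -0.61 against -0.26. Without the second WT_CL library 5 fell. Without the third WT_PBS library 9 fell, 1 rose and the median was -0.17.

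Between genotypes under CL316,243 the list did not move one way. Dtx3l, Parp9, Ifih1, Trim25, Psmb8, Tap1 and B2m were higher in ERRKO_CL than in WT_CL, and Dhx58, Ifit2, Gbp3 and Rsad2 were lower. These 7 and 4 of 35 genes compare with 19.9% higher and 21.6% lower of all genes tested, so the share higher was near the background and the share lower under it. The median change was 0.00, against 0.01 for all genes. On the deposited scale Dhx58 did not pass (-0.22, adjusted p = 0.21), Ifit2, Gbp3 and Rsad2 turned to positive values, and 22 of 35 were higher and none lower, where 70.5% of all genes were higher, with a median of 0.64 against 0.63. Without the third library of both ERRKO groups 7 were higher and 2 lower.

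**Figure D2:**
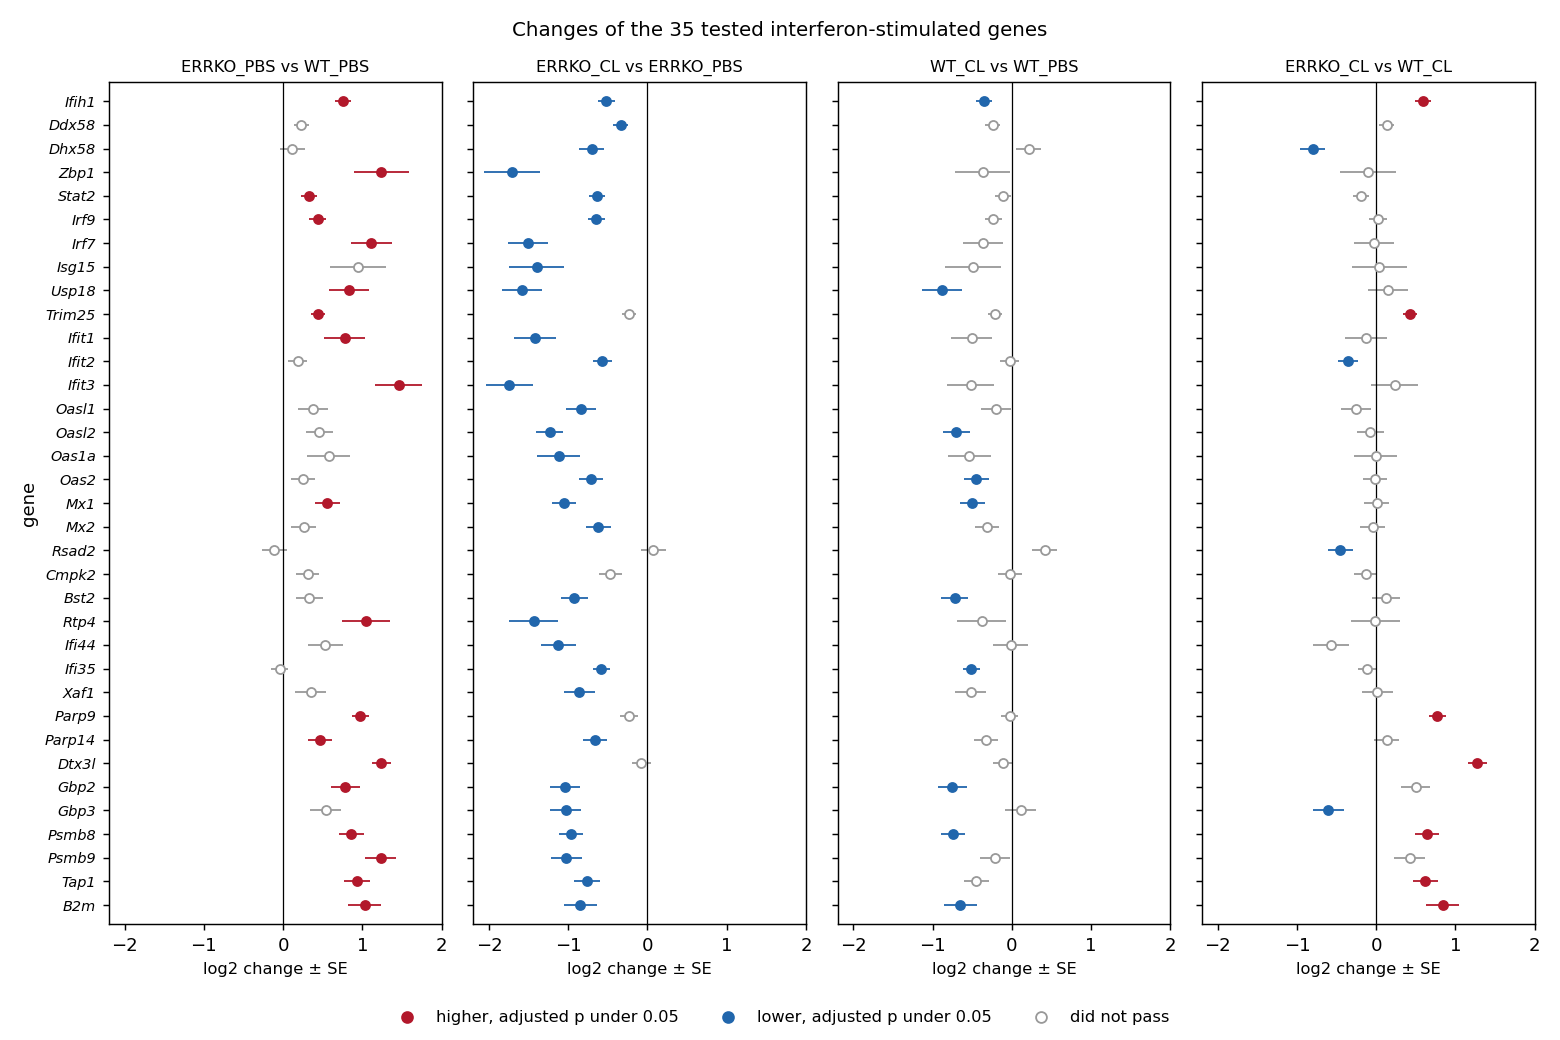
Each point is the log2 change (± SE, from limma) of a tested interferon-stimulated gene, in panels for ERRKO_PBS against WT_PBS, ERRKO_CL against ERRKO_PBS, WT_CL against WT_PBS and ERRKO_CL against WT_CL. Filled red points passed the test as higher, filled blue points as lower, and open grey points did not pass, with 19 red points in the first panel, 30 blue in the second, 10 blue in the third, and 7 red and 4 blue in the fourth.

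The response to CL316,243 was compared between genotypes with an interaction term, the change in ERRKO minus the change in WT. It was negative for 34 of the 35 genes and passed the test, as lower, for Dhx58 and Gbp3, against 1.95% of all genes tested. The median was -0.45, against 0.00 for all genes. An unadjusted p under 0.05 was found for 15 of 35, against 2294 of all 12249 genes. On the deposited scale 2 were lower, where 1.26% of all genes were. Without the third WT_PBS library the interaction passed for 12 genes, which were Dhx58, Gbp3, Zbp1, Irf7, Isg15, Usp18, Ifit1, Ifit3, Oasl1, Rtp4, Ifi44 and Psmb9. The value for Irf7 was then -1.53 (adjusted p = 0.0016), against -1.14 with all libraries (adjusted p = 0.11). The share of all genes that passed without the third WT_PBS library is not given here, so a general gain in calls cannot be told apart. That library was not the highest of its group in summed T and NK cell, macrophage or skeletal muscle markers, though it was the highest for 6 of the 12 macrophage markers. C1qa, for example, stood at 58.96 scaled RPKM in it, against 27.5 in the first and 38.5 in the second WT_PBS library. The sum of 10 dendritic cell markers was 94.3 there, against 64.6 and 60.7, but most of it was Bst2, one of the genes followed, and without Bst2 the sum was 6.78, against 10.5 and 10.2. Summed adipocyte markers were also highest in it, at 18307.5, against 12765 and 13105. It was the highest in 10 summed brown adipocyte markers, at 4914 scaled RPKM, against 3164 in the first and 2876 in the second WT_PBS library. The part of these in its interferon-stimulated gene levels was not tested.

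Promoter windows were searched for the letters that ISGF3 and related factors are known to bind. RefSeq promoters (GRCm38.p6, 250 bases before to 50 after each annotated start) were matched to 27 of the 36 genes, in 30 windows. Zbp1, Rtp4, Parp14, Oas2, Mx1, Usp18, Dhx58, Mx2 and Parp9 had no entry. The ISRE core GAAANNGAAA, searched on both strands, was found for 13 of 27 genes (48.1%), against 3.99% of the 27025 genes with a window. The 13 were Ifih1, Ddx58, Stat2, Isg15, Ifit1, Ifit3, Oas1a, Oas3, Rsad2, Bst2, Gbp2, Gbp3 and B2m. On the annotated strand alone 6 genes held it. The shorter AANNGAAA, which is contained in the core, was found for 19 genes (70.4%), against 26.7%. The gamma-activated site TTCNNNGAA was found for 5 genes, Ifit2, Oas1a, Bst2, Ifi35 and Psmb8 (18.5%), against 9.55%. A match is a description of the letters and not evidence of binding.

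An ISRE core lay before the start of 11 genes, of which Oas3, Gbp2 and Gbp3 are not shown. The following stretches carry these cores before the start of genes whose values follow. Each is written 5′ to 3′ on the strand of the gene with the ISRE cores in capitals, so a core on the opposite strand appears as its reverse complement. The Stat2 stretch is chr10:128270256-128270305 on the plus strand, Isg15 chr4:156200855-156200916 on the minus strand, Ifit1 chr19:34640784-34640833 plus, Ifit3 chr19:34583387-34583436 plus, Oas1a chr5:120907526-120907565 minus, Rsad2 chr12:26456543-26456592 minus, Bst2 chr8:71537567-71537622 minus and B2m chr2:122147528-122147577 plus.
Stat2: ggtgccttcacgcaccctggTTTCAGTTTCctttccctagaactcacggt
Isg15: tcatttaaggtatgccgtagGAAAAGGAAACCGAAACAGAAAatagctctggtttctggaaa
Ifit1: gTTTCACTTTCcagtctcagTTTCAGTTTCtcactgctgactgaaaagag
Ifit3: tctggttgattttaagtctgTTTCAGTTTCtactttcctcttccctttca
Oas1a: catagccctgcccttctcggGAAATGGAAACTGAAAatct
Rsad2: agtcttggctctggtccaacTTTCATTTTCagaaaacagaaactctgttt
Bst2: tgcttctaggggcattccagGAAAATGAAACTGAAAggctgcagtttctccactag
B2m: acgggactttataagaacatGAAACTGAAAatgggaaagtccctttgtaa
Isg15 carried 3 overlapping cores 56 bases before its start, and Ifit1 2 separate cores, the nearer 75 bases before the start. Oas1a carried 2 overlapping cores 4 bases before the start. The core of Rsad2 lay 110 bases, that of B2m 129 bases, that of Stat2 212 bases, the nearer of Ifit3 112 bases and the nearer of 2 overlapping cores of Bst2 114 bases before the start. Of the genes with calls, 6 of 12 tested genes with a core and 7 of 14 matched genes without it rose in ERRKO_PBS against WT_PBS. In ERRKO_CL against ERRKO_PBS 11 of 12 with a core and 11 of 14 without it fell.

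**Figure D3:**
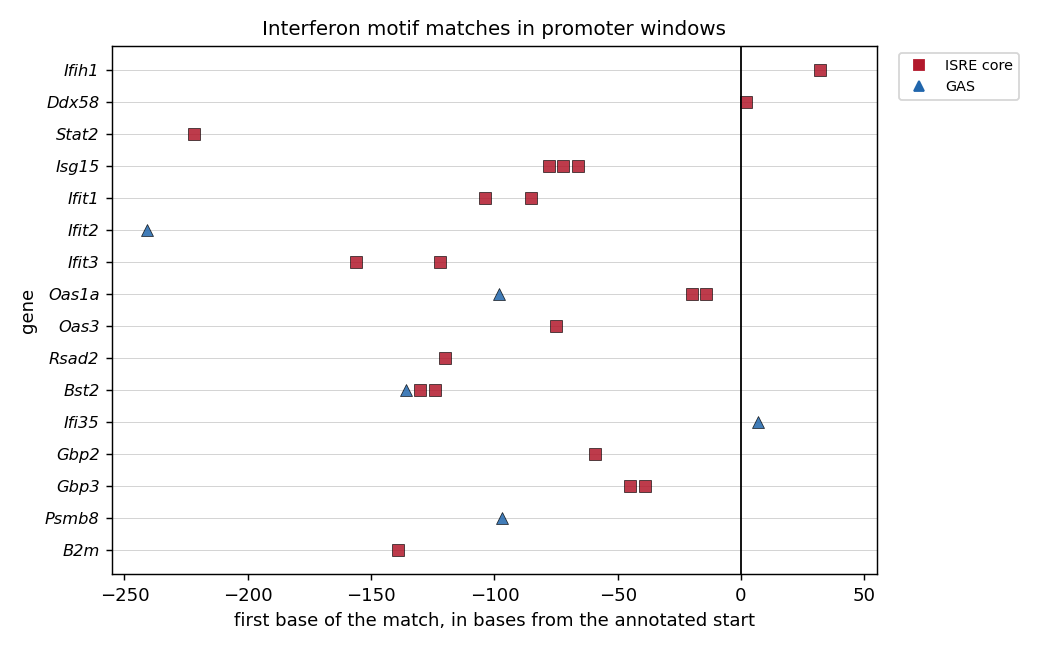
Squares mark ISRE core matches and triangles GAS matches, at the distance of their first base from the annotated start (horizontal axis, in bases), for each interferon-stimulated gene with a match in its promoter window. Most squares lie before the start, and those of Ifih1 and Ddx58 lie after it.

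The nucleic acid sensors differed among themselves. Ifih1 encodes MDA5, a sensor of long double-stranded RNA. Ifih1 was at 7.61, 7.15 and 6.58 scaled RPKM in ERRKO_PBS libraries, against 3.93, 3.76 and 4.36 in WT_PBS. Its levels were 4.40, 4.76 and 5.31 in ERRKO_CL libraries, against 2.88, 2.89 and 3.36 in WT_CL. No 2 groups overlapped: ERRKO_PBS was highest, then ERRKO_CL, WT_PBS and WT_CL. Ifih1 rose in ERRKO under PBS (0.75 ± 0.10, adjusted p = 0.00012) and under CL316,243 (0.59 ± 0.10, adjusted p = 0.00063). It fell with CL316,243 in ERRKO (-0.52 ± 0.10, adjusted p = 0.0094) and in WT (-0.35 ± 0.10, adjusted p = 0.022). The call in WT ended once any 1 of WT_CL replicates 1 and 2 and WT_PBS replicate 3 was left out (adjusted p of 0.060 to 0.073).

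Dhx58 encodes LGP2, a regulator of the RNA sensors that lacks their signalling domain. Dhx58 was at 1.62, 1.48 and 1.55 scaled RPKM in ERRKO_CL, against 3.04, 2.45 and 3.06 in ERRKO_PBS. It was at 3.49, 2.94 and 2.81 in WT_CL, against 2.20, 2.18 and 3.52 in WT_PBS. The ERRKO_CL libraries lay below all other 9. Dhx58 fell with CL316,243 in ERRKO (-0.70 ± 0.16, adjusted p = 0.016) and was lower in ERRKO_CL than in WT_CL (-0.80 ± 0.16, adjusted p = 0.0015), while its change in WT was 0.21 (adjusted p = 0.33). The fall in ERRKO was not called once any 1 of ERRKO_CL replicate 2 and ERRKO_PBS replicates 1 and 3 was left out (adjusted p of 0.052 to 0.067). The response differed between genotypes by -0.92 ± 0.22, adjusted p = 0.043. That call ended once any 1 of ERRKO_CL replicates 1, 2 and 3, ERRKO_PBS replicates 1 and 3, WT_CL replicates 1, 2 and 3 and WT_PBS replicates 1 and 2 was left out (adjusted p of 0.071 to 0.11), and without the third WT_PBS library the difference was -1.11 (adjusted p = 0.0048).

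Zbp1, a sensor of Z-form nucleic acids that can trigger necroptosis, averaged 3.09 ± 0.550 scaled RPKM in ERRKO_PBS and 1.20 ± 1.01 in WT_PBS (SD, n = 3 each). The WT_PBS libraries spanned 0.338 to 2.31, the third at the top, and did not overlap ERRKO_PBS. It rose in ERRKO_PBS (1.24 ± 0.35, adjusted p = 0.016) and fell with CL316,243 in ERRKO (-1.71 ± 0.35, adjusted p = 0.011). The rise was not called once any 1 of ERRKO_PBS replicate 1 and WT_PBS replicate 2 was left out (adjusted p of 0.054 to 0.059). Ddx58, which encodes RIG-I, the sensor of short RNA with a triphosphate end, averaged 6.17 ± 0.388 in ERRKO_CL and 7.94 ± 0.706 in ERRKO_PBS, and fell (-0.34 ± 0.10, adjusted p = 0.043). Its change in ERRKO_PBS against WT_PBS did not pass (0.23 ± 0.10, adjusted p = 0.081). The fall of Ddx58 was not called once any 1 of ERRKO_CL replicates 1, 2 and 3, ERRKO_PBS replicates 1 and 3, WT_CL replicates 1 and 3 and WT_PBS replicate 1 was left out (adjusted p of 0.053 to 0.14).

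All 3 transcription factors of the list rose in ERRKO_PBS and fell with CL316,243 in ERRKO, where 15.6% and 3.54% of all genes did. None passed in WT_CL against WT_PBS, where 12.2% of all genes fell and 18.1% rose. None passed between genotypes under CL316,243 either, where 19.9% were higher and 21.6% lower. With 3 genes, none cannot be told from these shares. Irf7, the factor that amplifies interferon alpha production, had the largest changes of the 3. Irf7 was at 29.97, 20.6 and 27.03 scaled RPKM in ERRKO_PBS, against 8.38, 9.03 and 20.1 in WT_PBS. It was at 8.20, 8.77 and 9.07 in ERRKO_CL, against 8.83, 8.31 and 9.38 in WT_CL. All ERRKO_PBS libraries lay above all others, the third WT_PBS library was just under them, and the remaining 8 libraries lay between 8.20 and 9.38. Irf7 rose in ERRKO_PBS by 1.12 ± 0.25, adjusted p = 0.0050. With CL316,243 in ERRKO the change was -1.51 ± 0.25, adjusted p = 0.0043, and in WT -0.37 (adjusted p = 0.30).

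Stat2, which encodes a subunit of ISGF3, was at 8.86, 7.52 and 8.84 scaled RPKM in ERRKO_PBS, against 7.36, 6.36 and 6.04 in WT_PBS. It was at 5.40, 5.44 and 4.85 in ERRKO_CL, against 5.57, 6.60 and 5.99 in WT_CL. ERRKO_PBS lay above and ERRKO_CL below all other libraries. Stat2 rose in ERRKO_PBS (0.33 ± 0.10, adjusted p = 0.028) and fell with CL316,243 in ERRKO (-0.63 ± 0.10, adjusted p = 0.0036). The rise was not called once any 1 of ERRKO_PBS replicates 1 and 3 and WT_PBS replicates 2 and 3 was left out (adjusted p of 0.076 to 0.095). Irf9, the DNA-binding partner in ISGF3, was at 7.19, 7.09 and 8.79 in ERRKO_PBS, against 5.29, 5.11 and 6.24 in WT_PBS. It was at 4.66, 4.82 and 4.65 in ERRKO_CL, against 4.49, 4.29 and 5.13 in WT_CL. The ERRKO_PBS libraries again lay above all others. Irf9 rose in ERRKO_PBS (0.44 ± 0.11, adjusted p = 0.0085) and fell with CL316,243 in ERRKO (-0.65 ± 0.11, adjusted p = 0.0042).

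ISG15 is a ubiquitin-like protein that is attached to other proteins during the interferon response. Isg15 was at 19.6, 13.5 and 18.6 scaled RPKM in ERRKO_PBS, against 7.99, 4.44 and 17.5 in WT_PBS. It was at 7.40, 6.10 and 5.15 in ERRKO_CL, against 7.02, 5.75 and 5.26 in WT_CL. ERRKO_PBS and the third WT_PBS library overlapped, and the other 8 libraries were below them. The change in ERRKO_PBS against WT_PBS did not pass (0.95 ± 0.35, adjusted p = 0.055). Isg15 fell with CL316,243 in ERRKO (-1.40 ± 0.35, adjusted p = 0.026), and that call ended once any 1 of ERRKO_CL replicates 2 and 3 and ERRKO_PBS replicates 1 and 3 was left out (adjusted p of 0.071 to 0.095).

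Usp18 removes ISG15 from its targets and restrains signalling at the type I interferon receptor. Usp18 was at 6.54, 6.20 and 7.01 scaled RPKM in ERRKO_PBS, against 3.07, 2.23 and 5.88 in WT_PBS. It was at 1.96, 1.63 and 2.05 in ERRKO_CL, against 1.57, 1.27 and 2.20 in WT_CL. ERRKO_PBS lay above all other libraries, the third WT_PBS library next. Usp18 rose in ERRKO_PBS (0.84 ± 0.25, adjusted p = 0.023) and fell with CL316,243 both in ERRKO (-1.58 ± 0.25, adjusted p = 0.0033) and in WT (-0.88 ± 0.25, adjusted p = 0.020). The rise was not called once any 1 of ERRKO_PBS replicates 1 and 3 and WT_PBS replicates 1 and 2 was left out (adjusted p of 0.056 to 0.090), nor the fall in WT once any 1 of WT_CL replicates 1 and 2 was left out (adjusted p of 0.057 to 0.080). Trim25, a ligase for ubiquitin and ISG15 that activates RIG-I, was at 8.97, 10.1 and 9.46 in ERRKO_CL, against 7.50, 6.88 and 6.48 in WT_CL. It was at 11.1, 11.2 and 11.5 in ERRKO_PBS, against 8.63, 8.57 and 7.31 in WT_PBS. All 6 ERRKO libraries lay above all 6 WT libraries. Trim25 was higher in ERRKO under CL316,243 (0.42 ± 0.09, adjusted p = 0.0023) and under PBS (0.44 ± 0.09, adjusted p = 0.0022), and neither CL316,243 comparison passed.

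**Figure D4:**
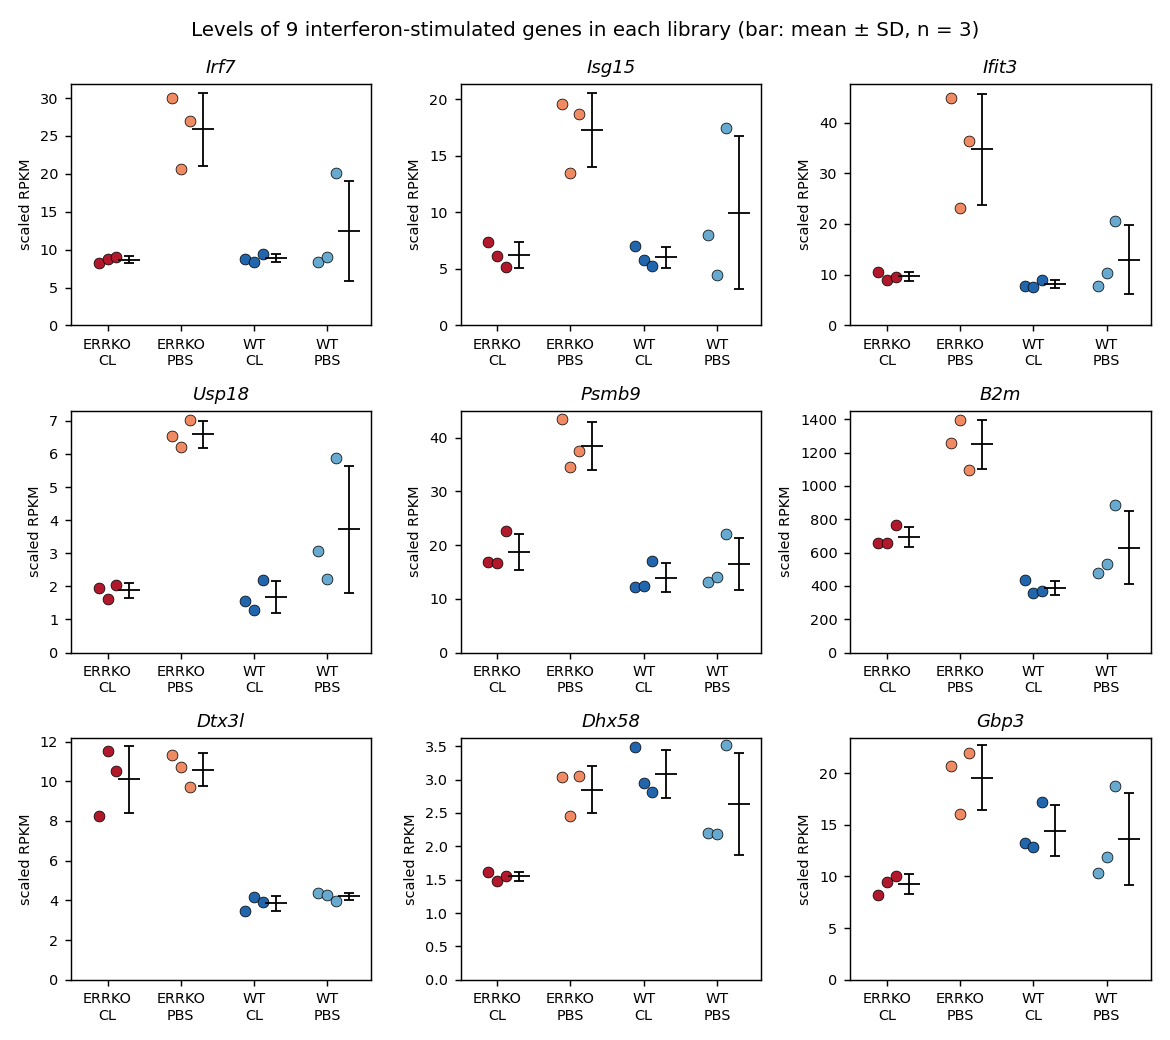
Points are scaled RPKM in each library and the bar beside them the mean ± SD (n = 3), for Irf7, Isg15, Ifit3, Usp18, Psmb9, B2m, Dtx3l, Dhx58 and Gbp3 in ERRKO_CL, ERRKO_PBS, WT_CL and WT_PBS, each axis starting at 0. Irf7, Isg15, Ifit3, Usp18, Psmb9 and B2m peak in ERRKO_PBS, Dtx3l is high in both ERRKO groups, and Dhx58 and Gbp3 are lowest in ERRKO_CL.

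Of the 12 tested antiviral effectors 3 rose in ERRKO_PBS (Ifit1, Ifit3 and Mx1), where 15.6% of all genes rose, and 10 fell with CL316,243 in ERRKO, where 3.54% of all genes fell. The IFIT proteins bind viral RNA at its modified or missing cap. Ifit3 was at 44.8, 23.1 and 36.4 scaled RPKM in ERRKO_PBS, against 7.75, 10.4 and 20.6 in WT_PBS. It was at 10.6, 8.99 and 9.47 in ERRKO_CL, against 7.85, 7.60 and 9.04 in WT_CL. ERRKO_PBS lay above all other libraries, with the third WT_PBS library just below. Ifit3 had the largest rise of the 35 genes in ERRKO_PBS (1.46 ± 0.30, adjusted p = 0.0024) and fell with CL316,243 in ERRKO (-1.74 ± 0.30, adjusted p = 0.0044). Ifit1 was at 8.40, 5.82 and 7.05 in ERRKO_PBS, against 2.54, 3.36 and 6.67 in WT_PBS. It was at 3.01, 2.02 and 2.01 in ERRKO_CL, against 2.34, 2.94 and 2.50 in WT_CL. The third WT_PBS library lay within the ERRKO_PBS range. Ifit1 rose in ERRKO_PBS (0.78 ± 0.26, adjusted p = 0.038) and fell with CL316,243 in ERRKO (-1.42 ± 0.26, adjusted p = 0.0068), and the rise was not called once any 1 of ERRKO_PBS replicates 1 and 3, WT_CL replicate 3 and WT_PBS replicates 1 and 2 was left out (adjusted p of 0.051 to 0.14). Ifit2 averaged 2.81 ± 0.179 in ERRKO_CL and 3.76 ± 0.633 in WT_CL (SD, n = 3 each), and was lower in ERRKO_CL (-0.36 ± 0.12, adjusted p = 0.033). That call ended once any 1 of ERRKO_CL replicates 1 and 3 and WT_CL replicate 1 was left out (adjusted p of 0.068 to 0.14). Ifit2 lies beside Ifit3 and Ifit1 on chromosome 19, and reads of Ifit3 may be shared with its near-identical paralog.

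The oligoadenylate synthetases make the messenger that activates RNase L, and their relatives Oasl1 and Oasl2 are induced with them. Oasl2 was at 2.27, 2.59 and 1.84 scaled RPKM in ERRKO_CL, against 6.30, 4.41 and 7.24 in ERRKO_PBS. It was at 2.60, 2.08 and 2.43 in WT_CL, against 3.92, 3.75 and 4.87 in WT_PBS. The treated libraries lay below the PBS libraries in both genotypes, and ERRKO_PBS and WT_PBS overlapped. Oasl2 fell with CL316,243 in ERRKO (-1.23 ± 0.17, adjusted p = 0.0013) and in WT (-0.70 ± 0.17, adjusted p = 0.0089). Oas2 fell in ERRKO (-0.71 ± 0.15, adjusted p = 0.014) and in WT (-0.45 ± 0.15, adjusted p = 0.045). Its fall in ERRKO was not called once any 1 of ERRKO_CL replicate 3 and ERRKO_PBS replicate 1 was left out (adjusted p of 0.055 to 0.065), and its fall in WT ended as a call in 10 of the 12 fits that left out a library. Oas1a fell in ERRKO (-1.12 ± 0.27, adjusted p = 0.024), as did Oasl1 (-0.84 ± 0.19, adjusted p = 0.018). These calls ended for Oas1a once any 1 of ERRKO_CL replicates 1, 2 and 3 and ERRKO_PBS replicates 1 and 3 was left out (adjusted p of 0.051 to 0.093) and for Oasl1 once any 1 of ERRKO_CL replicate 2 and ERRKO_PBS replicate 1 was left out (adjusted p of 0.065 to 0.075). None of the 4 passed in ERRKO_PBS against WT_PBS. Oas1a has close paralogs, among which the authors' counting may have split reads.

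Mx1 and Mx2 encode dynamin-like GTPases that block virus replication, though many inbred laboratory strains carry a defective Mx1. Mx1 was low, at 0.959, 0.907 and 0.943 scaled RPKM in ERRKO_PBS, against 0.572, 0.491 and 0.374 in WT_PBS. It was at 0.183, 0.270 and 0.130 in ERRKO_CL, against 0.274, 0.225 and 0.0854 in WT_CL. The ERRKO_PBS libraries lay above all others, and Mx1 did not peak in the third WT_PBS library. Mx1 rose in ERRKO_PBS (0.56 ± 0.16, adjusted p = 0.016) and fell with CL316,243 in ERRKO (-1.05 ± 0.16, adjusted p = 0.0022) and in WT (-0.50 ± 0.16, adjusted p = 0.031). Its mean deposited RPKM was 0.515, and the ERRKO_PBS libraries brought it over the filter of 0.5. The Mx1 calls that involve ERRKO_PBS are therefore not independent of the filter. The rise was not called once ERRKO_PBS replicate 1 was left out (adjusted p = 0.050), nor the fall in WT once any 1 of WT_CL replicates 2 and 3 and WT_PBS replicates 1 and 2 was left out (adjusted p of 0.053 to 0.12). Mx2 fell with CL316,243 in ERRKO (-0.62 ± 0.16, adjusted p = 0.027), a call that ended once any 1 of ERRKO_CL replicates 2 and 3 and ERRKO_PBS replicates 1 and 2 was left out (adjusted p of 0.061 to 0.11).

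Bst2 encodes tetherin, which holds budding virus particles at the cell surface. Bst2 was at 39.2, 44.2 and 39.6 scaled RPKM in ERRKO_CL, against 72.9, 75.2 and 87.1 in ERRKO_PBS. It was at 38.3, 34.1 and 40.5 in WT_CL, against 54.1, 50.5 and 87.6 in WT_PBS. Treated libraries lay below PBS libraries in both genotypes. Bst2 fell with CL316,243 in ERRKO (-0.93 ± 0.17, adjusted p = 0.0068) and in WT (-0.72 ± 0.17, adjusted p = 0.0080), and ERRKO_PBS did not pass against WT_PBS (0.33 ± 0.17, adjusted p = 0.16). Rsad2, which encodes viperin, an enzyme that makes a chain-terminating nucleotide, went its own way. It averaged 7.54 ± 2.08 in ERRKO_CL and 10.3 ± 1.19 in WT_CL (SD, n = 3 each) and was lower in ERRKO_CL (-0.45 ± 0.16, adjusted p = 0.036). The second ERRKO_CL library, at 9.87, lay within the WT_CL range, and the call ended once any 1 of ERRKO_CL replicates 1 and 3 and WT_CL replicates 1 and 3 was left out (adjusted p of 0.072 to 0.15). Its neighbour on chromosome 12, Cmpk2, a mitochondrial nucleotide kinase, passed in none of the 5 tests, with a change of -0.47 in ERRKO_CL against ERRKO_PBS (adjusted p = 0.064).

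The other induced genes Rtp4, Ifi44, Ifi35 and Xaf1 all fell with CL316,243 in ERRKO, where 3.54% of all genes fell. Rtp4, a receptor chaperone that restricts some viruses, was the only one of them that rose in ERRKO_PBS, at 15.3 ± 2.93 scaled RPKM in ERRKO_PBS and 7.95 ± 5.07 in WT_PBS (SD, n = 3 each; 1.05 ± 0.31, adjusted p = 0.020). The third WT_PBS library lay within the ERRKO_PBS range for Rtp4, and the rise was not called once any 1 of ERRKO_PBS replicate 3 and WT_PBS replicates 1 and 2 was left out (adjusted p of 0.072 to 0.083). Its fall in ERRKO was -1.44 ± 0.31, adjusted p = 0.014. Ifi44 fell there (-1.12 ± 0.22, adjusted p = 0.010), and so did Xaf1, a protein tied to apoptosis (-0.86 ± 0.19, adjusted p = 0.017). The calls ended for Rtp4 once ERRKO_CL replicate 3 was left out (adjusted p = 0.050) and for Xaf1 once any 1 of ERRKO_CL replicate 3 and ERRKO_PBS replicate 1 was left out (adjusted p of 0.059 to 0.071). Ifi35 was at 10.3, 9.60 and 10.1 in ERRKO_CL, against 14.7, 15.9 and 14.9 in ERRKO_PBS. It was at 10.6, 12.7 and 9.46 in WT_CL, against 14.95, 14.3 and 17.9 in WT_PBS. All 6 treated libraries lay below all 6 PBS libraries, with no separation of genotypes. Ifi35 fell in ERRKO (-0.58 ± 0.11, adjusted p = 0.0079) and in WT (-0.51 ± 0.11, adjusted p = 0.0050). Of the exon bases of Ifi35 16.8% and of Rtp4 13.9% overlap other genes in GENCODE M21, so their values are less certain.

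The 3 genes of ADP-ribosylation all rose in ERRKO_PBS, where 15.6% of all genes rose. Dtx3l is a ubiquitin ligase that works in a complex with Parp9. Dtx3l was at 11.3, 10.7 and 9.71 scaled RPKM in ERRKO_PBS, against 4.35, 4.27 and 3.98 in WT_PBS. It was at 8.25, 11.5 and 10.5 in ERRKO_CL, against 3.45, 4.19 and 3.92 in WT_CL. All 6 ERRKO libraries lay above all 6 WT libraries, and treated and PBS libraries overlapped within each genotype. Dtx3l had the smallest p of the list in both genotype comparisons, with changes of 1.24 ± 0.12, adjusted p = 8.7e-06 under PBS and 1.27 ± 0.12, adjusted p = 4.7e-06 under CL316,243. The changes with CL316,243 were -0.08 in ERRKO (adjusted p = 0.75) and -0.11 in WT (adjusted p = 0.51).

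Parp9 was at 19.1, 19.2 and 19.4 scaled RPKM in ERRKO_PBS, against 8.12, 9.81 and 10.9 in WT_PBS. It was at 14.6, 16.1 and 18.4 in ERRKO_CL, against 9.14, 9.19 and 9.76 in WT_CL. As for Dtx3l, the genotypes did not overlap. Parp9 rose in ERRKO under PBS (0.97 ± 0.11, adjusted p = 2.9e-05) and under CL316,243 (0.77 ± 0.11, adjusted p = 0.00014). Parp9 and Dtx3l start head to head on chromosome 16 and share 458 exon bases in GENCODE M21, which is 9.4% of Parp9 and 8.0% of Dtx3l, so part of their reads cannot be told apart without strand. Parp14, a transferase of single ADP-ribose units in the same cluster, averaged 9.08 ± 0.737 in ERRKO_PBS and 6.48 ± 1.05 in WT_PBS (SD, n = 3 each; 0.47 ± 0.15, adjusted p = 0.035). It fell with CL316,243 in ERRKO (-0.66 ± 0.15, adjusted p = 0.020). Its rise was not called once any 1 of ERRKO_PBS replicates 1 and 2 and WT_PBS replicates 2 and 3 was left out (adjusted p of 0.051 to 0.12), nor its fall once any 1 of ERRKO_CL replicate 1 and ERRKO_PBS replicates 1 and 2 was left out (adjusted p of 0.055 to 0.075).

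Guanylate-binding proteins are GTPases that coat and break the vacuoles of intracellular microbes. Gbp2 was at 55.3, 45.4 and 43.00 scaled RPKM in ERRKO_PBS, against 22.9, 26.9 and 33.3 in WT_PBS. It was at 21.3, 22.5 and 24.9 in ERRKO_CL, against 14.3, 13.03 and 22.3 in WT_CL. ERRKO_PBS lay above all other libraries. Gbp2 rose in ERRKO_PBS (0.79 ± 0.19, adjusted p = 0.0066) and fell with CL316,243 in ERRKO (-1.04 ± 0.19, adjusted p = 0.0060) and in WT (-0.75 ± 0.19, adjusted p = 0.011). Gbp3 was at 8.24, 9.50 and 10.1 in ERRKO_CL, against 20.7, 16.1 and 21.97 in ERRKO_PBS. It was at 13.2, 12.9 and 17.2 in WT_CL, against 10.3, 11.9 and 18.7 in WT_PBS. The ERRKO_CL libraries lay below all others. Gbp3 fell with CL316,243 in ERRKO (-1.03 ± 0.20, adjusted p = 0.0080) and was lower in ERRKO_CL than in WT_CL (-0.60 ± 0.20, adjusted p = 0.028). Its change in WT was 0.11 (adjusted p = 0.71), and the responses differed by -1.14 ± 0.28, adjusted p = 0.045. The interaction call ended once any 1 of ERRKO_CL replicates 1, 2 and 3, ERRKO_PBS replicates 1 and 3, WT_CL replicates 1, 2 and 3 and WT_PBS replicates 1 and 2 was left out (adjusted p of 0.067 to 0.11), and without the third WT_PBS library the difference was -1.39 (adjusted p = 0.0050). The call against WT_CL ended once any 1 of ERRKO_CL replicates 1 and 2 and WT_CL replicate 3 was left out (adjusted p of 0.057 to 0.11). Reads of both genes may be shared with other members of the family.

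All 4 genes of antigen presentation rose in ERRKO_PBS and fell with CL316,243 in ERRKO, where 15.6% and 3.54% of all genes did. B2m, the light chain of MHC class I, was the most abundant gene of the list per length. B2m was at 1258, 1393 and 1094 scaled RPKM in ERRKO_PBS, against 475, 533 and 883 in WT_PBS. It was at 657, 656 and 765 in ERRKO_CL, against 434, 358 and 369 in WT_CL. ERRKO_PBS lay above all other libraries, and ERRKO_CL above WT_CL. B2m rose in ERRKO under PBS (1.03 ± 0.21, adjusted p = 0.0023) and under CL316,243 (0.84 ± 0.21, adjusted p = 0.0064). It fell with CL316,243 in ERRKO (-0.85 ± 0.21, adjusted p = 0.025) and in WT (-0.65 ± 0.21, adjusted p = 0.033). The fall in ERRKO was not called once any 1 of ERRKO_CL replicates 1 and 2 and ERRKO_PBS replicates 1 and 2 was left out (adjusted p of 0.071 to 0.083), and the fall in WT not once any 1 of WT_CL replicates 2 and 3 and WT_PBS replicate 3 was left out (adjusted p of 0.057 to 0.10).

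Psmb8 and Psmb9 encode catalytic subunits of the immunoproteasome, and Tap1 a subunit of the transporter that carries peptides into the endoplasmic reticulum. Psmb8 was at 65.3, 59.5 and 54.4 scaled RPKM in ERRKO_PBS, against 28.5, 27.3 and 44.2 in WT_PBS. It was at 28.05, 30.9 and 31.9 in ERRKO_CL, against 20.3, 17.5 and 20.01 in WT_CL. ERRKO_PBS lay above and WT_CL below all other libraries. Psmb8 passed in all 4 pairwise comparisons, higher in ERRKO under PBS (0.86 ± 0.16, adjusted p = 0.0011) and under CL316,243 (0.64 ± 0.16, adjusted p = 0.0058), and lower with CL316,243 in ERRKO (-0.97 ± 0.16, adjusted p = 0.0033) and in WT (-0.75 ± 0.16, adjusted p = 0.0039). Psmb9 was at 43.4, 34.6 and 37.5 in ERRKO_PBS, against 13.2, 14.1 and 22.04 in WT_PBS. It was at 16.95, 16.7 and 22.6 in ERRKO_CL, against 12.3, 12.4 and 17.02 in WT_CL. Only the 3 ERRKO_PBS libraries stood clear of the rest. Psmb9 rose in ERRKO_PBS (1.23 ± 0.19, adjusted p = 0.00042) and fell with CL316,243 in ERRKO (-1.03 ± 0.19, adjusted p = 0.0076). Tap1 was at 22.9, 20.2 and 19.2 in ERRKO_PBS, against 10.3, 10.4 and 11.1 in WT_PBS. It was at 8.63, 13.4 and 14.9 in ERRKO_CL, against 7.01, 7.62 and 8.35 in WT_CL. ERRKO_PBS lay above all others, and ERRKO_CL above WT_CL. Tap1 rose in ERRKO under PBS (0.93 ± 0.16, adjusted p = 0.00080) and under CL316,243 (0.62 ± 0.16, adjusted p = 0.0085), and fell with CL316,243 in ERRKO (-0.76 ± 0.16, adjusted p = 0.013), a call that ended once ERRKO_PBS replicate 1 was left out (adjusted p = 0.061). Psmb9 and Tap1 start on opposite strands of chromosome 17, 226 bases apart, and Psmb8 follows Tap1. Of the exon bases of Psmb8 14.7% overlap another gene in GENCODE M21.

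The calls sort the list into a few patterns. Ifih1, Psmb8 and B2m passed in all 4 pairwise comparisons, and Tap1 in all but WT_CL against WT_PBS. Trim25, Parp9 and Dtx3l passed between genotypes under both treatments and in no comparison of treatments. The most common pattern, a rise in ERRKO_PBS with a fall after CL316,243 in ERRKO and no other call, held for 9 genes: Zbp1, Stat2, Irf9, Irf7, Ifit1, Ifit3, Rtp4, Parp14 and Psmb9. Usp18, Mx1 and Gbp2 shared it and fell in WT as well. Oasl2, Oas2, Bst2 and Ifi35 fell with CL316,243 in both genotypes with no genotype call. Ddx58, Isg15, Oasl1, Oas1a, Mx2, Ifi44 and Xaf1 passed in ERRKO_CL against ERRKO_PBS alone. Dhx58, Ifit2 and Gbp3 fell with CL316,243 in ERRKO and were lower in ERRKO_CL than in WT_CL, Rsad2 had that lower level in ERRKO_CL alone, and Cmpk2 had no call. A call in 1 comparison and none in another does not show that these comparisons differ.

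The genes that feed this response were followed with lists of the rest of the pathway. Of 21 interferon genes, 17 were listed at 0 in all 12 libraries and none reached the filter. Ifng, which encodes interferon gamma, was at 0.220, 0.360 and 0.329 scaled RPKM in ERRKO_PBS, against 0, 0.121 and 0.236 in WT_PBS. It was at 0, 0.0433 and 0.0429 in ERRKO_CL, against 0.0675, 0.138 and 0.140 in WT_CL. These values are too low for a test here. Of 5 tested receptor genes none rose in ERRKO_PBS, where 15.6% of all genes did, and 3 of the 5 changes were positive. With 5 genes, none cannot be told from that share. Ifnar2, a chain of the type I receptor, fell (-0.37 ± 0.12, adjusted p = 0.026), where 18.6% of all genes fell. That fall turns to a higher value of 0.21 on the deposited scale. There 4 of the 5 were called higher, against 66.3% of all genes.

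Of 8 signalling genes 2 rose in ERRKO_PBS, a share near the 15.6% of all genes. Irf1, a factor induced mainly by interferon gamma, averaged 20.2 ± 2.40 scaled RPKM in ERRKO_PBS and 12.4 ± 0.708 in WT_PBS (SD, n = 3 each; 0.68 ± 0.10, adjusted p = 0.00023), and under CL316,243 ERRKO also exceeded WT (0.43 ± 0.10, adjusted p = 0.0040). Irf3 rose as well (0.33 ± 0.11, adjusted p = 0.037). None of the 8 passed by limma with CL316,243 in ERRKO, though all 8 changes were negative. Of the 8, 2 had an unadjusted p under 0.05, against 3118 of all 12249 genes. On the deposited scale 4 fell, where 13.7% of all genes did. Irf1 had an adjusted p of 0.062 by limma in this comparison, and of 0.034 by edgeR. Of 8 inhibitors 2 rose in ERRKO_PBS, a share near the 15.6% of all genes. With CL316,243 in ERRKO only Socs1, a suppressor of the receptor kinases, fell (-0.77 ± 0.20, adjusted p = 0.034), where 3.54% of all genes did. Of 15 further sensors and adaptors 1 rose and 2 fell in ERRKO_PBS, shares under the 15.6% and 18.6% of all genes. Between genotypes under CL316,243, none of the 15 was higher and 3 were lower, against 19.9% and 21.6% of all genes. Mavs, the mitochondrial adaptor of RIG-I and MDA5, was lower in ERRKO under PBS (-0.71 ± 0.10, adjusted p = 0.00020) and under CL316,243 (-0.56 ± 0.10, adjusted p = 0.00081). Ticam1, the adaptor of TLR3, was likewise lower under PBS (-0.69 ± 0.14, adjusted p = 0.0026) and under CL316,243 (-0.52 ± 0.14, adjusted p = 0.011). None of these 4 calls held on the deposited scale, where the values under PBS were -0.12 for Mavs (adjusted p = 0.26) and -0.17 for Ticam1 (adjusted p = 0.37), and those under CL316,243 turned to 0.13 for Mavs and 0.10 for Ticam1. Adar, the editor of double-stranded RNA, rose in ERRKO_PBS (0.30 ± 0.10, adjusted p = 0.035).

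Lists of further interferon targets also held genes that rose under PBS. Of 17 genes of MHC class I presentation outside the 36, 11 rose in ERRKO_PBS and none fell, and 11 fell with CL316,243 in ERRKO. Of all genes 15.6% rose and 18.6% fell in the first comparison and 3.54% fell in the second, which also stand as background for the lists that follow. H2-K1, a classical heavy chain, averaged 632 ± 101 scaled RPKM in ERRKO_PBS and 293 ± 80.4 in WT_PBS (SD, n = 3 each; 1.13 ± 0.18, adjusted p = 0.00041), and H2-D1 684 ± 90.9 in ERRKO_PBS and 354 ± 86.6 in WT_PBS (0.97 ± 0.16, adjusted p = 0.00059). Erap1, which trims peptides, rose by 0.72 ± 0.09, adjusted p = 4.4e-05, and Tap2, the partner of Tap1, by 0.66 ± 0.09, adjusted p = 0.00012. H2-Q4 was the only gene of that list whose interaction passed (-0.86 ± 0.20, adjusted p = 0.037), but without further scaling it did not (adjusted p = 0.061), nor in 7 of the 12 fits that left out a library. Class I heavy chain genes are close paralogs, so their values are uncertain. Of 15 tested genes induced mainly by interferon gamma, guanylate-binding and immunity-related GTPases with Cxcl9, 10 rose in ERRKO_PBS and none fell, and 7 fell with CL316,243 in ERRKO. Gbp11 changed by 3.27 ± 0.41, adjusted p = 7.1e-05 under PBS and 2.42 ± 0.41, adjusted p = 0.00054 under CL316,243, and Irgm2 by 1.13 ± 0.26, adjusted p = 0.0049 under PBS.

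Of 37 other interferon-induced genes 14 rose in ERRKO_PBS and 1 fell, and 20 fell with CL316,243 in ERRKO, where the background is again 15.6% higher, 18.6% lower and 3.54% lower. Isg20, an exonuclease, was higher in ERRKO under PBS (1.19 ± 0.15, adjusted p = 7.9e-05) and under CL316,243 (1.42 ± 0.15, adjusted p = 1.3e-05), like Dtx3l. The gene that fell in ERRKO_PBS was Pnpt1, a mitochondrial exonuclease (-0.60 ± 0.11, adjusted p = 0.0015), and on the deposited scale its value was -0.02 (adjusted p = 0.83). Cxcl10, a chemokine for T cells, fell with CL316,243 in ERRKO (-1.83 ± 0.23, adjusted p = 0.00085) and in WT (-1.19 ± 0.23, adjusted p = 0.0027). Slfn2 also fell in ERRKO (-1.01 ± 0.11, adjusted p = 0.00046) and in WT (-0.99 ± 0.11, adjusted p = 8.7e-05). Ifi27 rose with CL316,243 in WT (1.06 ± 0.19, adjusted p = 0.0015), which none of the 35 tested genes of the list did. In WT_CL against WT_PBS 9 of the 37 fell and 2 rose, where 12.2% of all genes fell and 18.1% rose.

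Markers of other cells moved in part with these genes. Of 14 T and NK cell markers 13 were in the table and 8 were tested, of which 6 rose in ERRKO_PBS, and Cd3g and Lck fell with CL316,243 in ERRKO. Cd3e and Ncr1, both among the 6, had mean deposited RPKM of 0.716 and 0.583. The ERRKO_PBS libraries, where both were highest on average, brought them over the filter of 0.5. Their rises are therefore not independent of the filter. By edgeR on recovered reads the rises of Cd3g and Lck did not pass (adjusted p = 0.072 and 0.054), and Ncr1 had no value. Those of Cd3e and Nkg7 passed by edgeR (adjusted p = 0.0079 and 0.042). Recovered reads were as few as 4 in a library for Cd3e, Cd3g and Nkg7. The summed level of the 13 markers was 6.74 to 8.24 scaled RPKM in ERRKO_CL, 11.9 to 18.3 in ERRKO_PBS, 5.16 to 11.3 in WT_CL and 6.44 to 9.18 in WT_PBS. The ERRKO_PBS range lay above all others, though the third WT_PBS library, at 7.42, was not the highest of its group. Cd3e, a chain of the T cell receptor complex, averaged 1.15 ± 0.327 in ERRKO_PBS and 0.372 ± 0.123 in WT_PBS (SD, n = 3 each; 0.91 ± 0.20, adjusted p = 0.0037). Cd4, Cd8a, Cd8b1, Klrb1c and Prf1 were under the filter, and none of the 13 was at 0 in every library.

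Of 12 macrophage markers none passed by limma in ERRKO_PBS against WT_PBS. There 2 had an unadjusted p under 0.05, against 5456 of all 12249 genes. On the deposited scale 8 were called higher, a share near the 66.3% of all genes. With CL316,243, 4 markers fell in ERRKO and 10 in WT, against 3.54% and 12.2% of all genes. The summed level of the 12 markers was 177 to 224 scaled RPKM in ERRKO_CL, 303 to 333 in ERRKO_PBS, 153 to 195 in WT_CL and 269.6 to 504 in WT_PBS. C1qb, a complement component made by macrophages, fell with CL316,243 in ERRKO (-0.86 ± 0.16, adjusted p = 0.0060) and in WT (-1.03 ± 0.16, adjusted p = 0.00059). The summed levels of treated and PBS libraries did not overlap in either genotype, and those of ERRKO_PBS and WT_PBS overlapped. Treated libraries also lay below PBS libraries in both genotypes for Oasl2, Bst2, Ifi35, Ifih1, Usp18, Oas2, Gbp2, Psmb8, B2m and Tap1, among others. In ERRKO 12.4% of all genes were separated in this way, and the share of all genes for both genotypes is not given here. Some gaps in WT were narrow, such as that of Usp18, from 2.20 in WT_CL to 2.23 scaled RPKM in WT_PBS. Of 4 tested dendritic cell markers, which include Bst2, none passed in ERRKO_PBS against WT_PBS and none had an unadjusted p under 0.05, and Siglech, Flt3, Xcr1, Clec9a, Ccr9 and Ly6d were under the filter. Summed neutrophil markers were 21.4 to 24.4 in ERRKO_CL, 6.22 to 10.3 in ERRKO_PBS, 4.85 to 14.5 in WT_CL and 11.4 to 20.9 in WT_PBS, and thus not highest where interferon-stimulated genes were. Of 8 endothelial markers 3 fell in ERRKO_PBS, where 18.6% of all genes fell, none of them on the deposited scale, and none passed with CL316,243 in ERRKO, also at an unadjusted p under 0.05. None of the 18 skeletal muscle markers passed in ERRKO_PBS against WT_PBS, where their median change was 3.59. There 11 had an unadjusted p under 0.05, against 5456 of all 12249 genes. On the deposited scale 16 were called higher, where 66.3% of all genes were. None of the 18 passed in ERRKO_CL against ERRKO_PBS, also at an unadjusted p under 0.05. No marker of these lists in the table was at 0 in every library. Of 2 tested B cell markers none passed in ERRKO_PBS against WT_PBS, where 1 had an unadjusted p under 0.05, or in ERRKO_CL against ERRKO_PBS. Of 12 adipocyte markers 5 rose and 2 fell in ERRKO_PBS, and 3 rose with CL316,243 in ERRKO. Of 10 brown adipocyte markers 5 fell in ERRKO_PBS, and 5 rose with CL316,243 in ERRKO and 6 in WT. Of all genes 18.6% fell in ERRKO_PBS, and 7.01% rose with CL316,243 in ERRKO and 18.1% in WT. The part of these cells in the changes of interferon-stimulated genes was not tested.

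**Figure D5:**
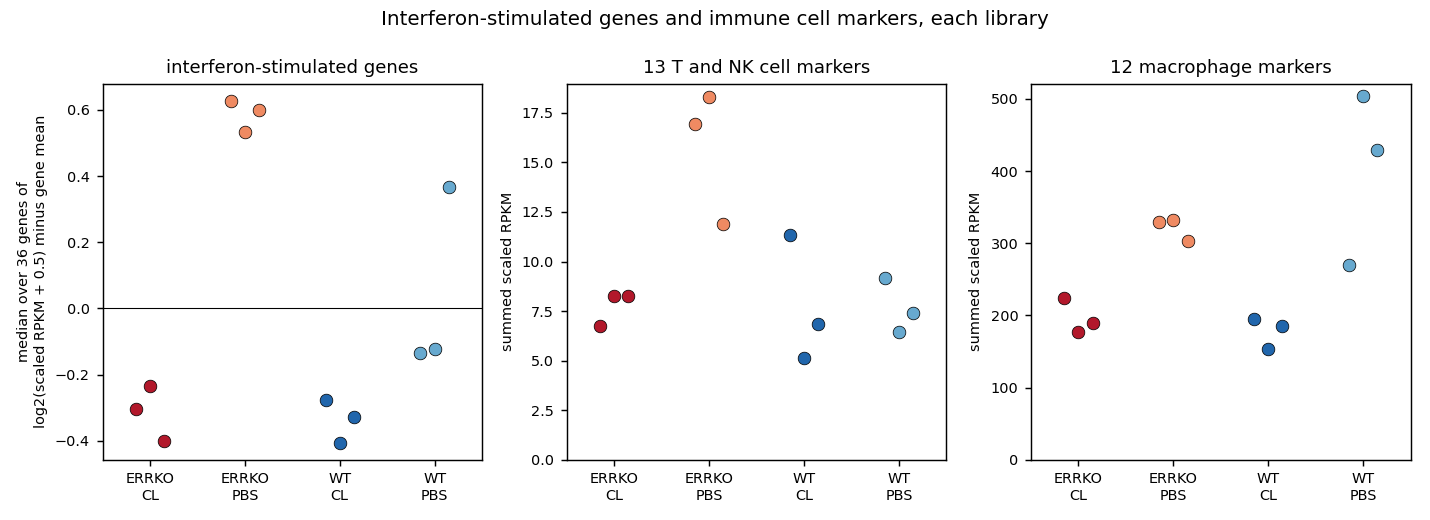
Points are libraries of ERRKO_CL, ERRKO_PBS, WT_CL and WT_PBS, with the median over the 36 interferon-stimulated genes of log2(scaled RPKM + 0.5) minus the gene's mean in the left panel, and the summed scaled RPKM of 13 T and NK cell markers and 12 macrophage markers in the others. The ERRKO_PBS libraries are highest in the left panel and for T and NK cell markers, and overlap WT_PBS for macrophage markers.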

How the data were processed

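Per the labels, brown adipose tissue RNA of 12 samples was sequenced with a TruSeq total RNA kit from 1 µg of RNA. Per the submitters' processing notes the tools were edgeR, cutadapt, STAR 2.3.0 and bcl2fastq 2.16.0.10, and the builds mm10 and mm9, without saying which served what. How reads were counted, with which annotation and strand setting, is not given in the sources used here. The authors deposited RPKM values for 24452 genes, 6296 of them at 0 in every library, and a second table of 12380 genes as a linear signal, though its name says log CPM. In the deposited signal 100% of values were whole multiples of a step (tolerance 0.01), which gave read counts. A further 9 stray cells outside the sample columns were ignored.

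RPKM were scaled by median-of-ratios factors (0.704 to 1.39), since the typical gene differed between groups as deposited. In R 4.3.3, limma 3.58.1 with a trended empirical Bayes step was run on log2(scaled RPKM + 0.5) for the 12249 genes whose mean deposited RPKM reached 0.5, with 4 group means and 8 residual degrees of freedom, and tested on simulated data. Alternatives were deposited RPKM, quantile normalization, pseudocounts of 0.1 and 1, no filter, a mean RPKM of at least 2, only the groups compared, a replicate block, edgeR 4.0.16 and DESeq2 1.42.0 on recovered reads, each library left out, and replicate 3 of both ERRKO groups left out. Libraries were grouped by their labels.

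The genes followed, the other 17 lists and the tests were chosen with earlier results of these data known. All values per library are given for Isg15, Irf7, Ifit1, Ifit3, Stat2, Irf9 and B2m and for up to 5 called genes with the smallest p in each comparison. From other lists up to 4 called genes with the smallest p could be named, and Esrra and Ucp1 always. One gene of the signalling list is not reported here. Esrrg was added after its values were seen. Gene positions come from GENCODE M21 on GRCm38 and promoters from RefSeq, not from the files.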

Additional observations from a re-analysis of the deposited data

Results flagged for a closer look

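The response to CL316,243 differed between genotypes, by the interaction term of limma with Benjamini-Hochberg adjustment over all genes tested, for 2 of the interferon-stimulated genes and for 1 further gene of MHC class I presentation. For Dhx58 the change with CL316,243 was -0.70 in ERRKO and 0.21 in WT, a difference of -0.92 ± 0.22, adjusted p = 0.043. For Gbp3 it was -1.03 in ERRKO and 0.11 in WT, a difference of -1.14 ± 0.28, adjusted p = 0.045. For H2-Q4, a class I heavy chain gene with close paralogs, it was -1.20 in ERRKO and -0.33 in WT, a difference of -0.86 ± 0.20, adjusted p = 0.037. Each of the 3 was lower in all 3 ERRKO_CL libraries than in all 3 ERRKO_PBS libraries. So were 33 of the 35 tested interferon-stimulated genes and 12.4% of all genes. This separation concerns the response in ERRKO alone and not the difference between genotypes. The third WT_PBS library was the highest of its group for Dhx58 and Gbp3, and without it the differences were -1.11 for Dhx58 and -1.39 for Gbp3. Leaving out any 1 of 10 other libraries ended the calls of Dhx58 (adjusted p of 0.071 to 0.11) and Gbp3 (0.067 to 0.11), and leaving out any 1 of 7 ended that of H2-Q4 (0.061 to 0.092). The calls of Dhx58 and Gbp3 held in RPKM as deposited, and that of H2-Q4 did not (adjusted p = 0.061).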

How the results depend on the processing

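The 5 counts of interferon-stimulated genes called and the 5 medians of their changes were recomputed under 23 other settings. The median kept its sign under all of them in ERRKO_PBS against WT_PBS, ERRKO_CL against ERRKO_PBS and WT_CL against WT_PBS, and for the interaction, which fits of only the groups compared cannot give. It ran from -0.05 to 0.64 in ERRKO_CL against WT_CL. Of the calls, 11 of 19 in ERRKO_PBS against WT_PBS held in every setting, 7 of 11 in ERRKO_CL against WT_CL, 10 of 30 in ERRKO_CL against ERRKO_PBS, 5 of 10 in WT_CL against WT_PBS and 0 of 2 for the interaction. The 7 were Dtx3l, Parp9, Ifih1, Trim25, Psmb8, Tap1 and B2m.

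On the deposited scale, which keeps the shift of the typical gene, 35 genes were called in ERRKO_PBS against WT_PBS (median 1.04), 22 in ERRKO_CL against WT_CL (0.64), 25 in WT_CL against WT_PBS (-0.61), and the median was -1.06 in ERRKO_CL against ERRKO_PBS. Changes in ERRKO_CL against WT_CL turned there to 0.46 for Stat2, 0.65 for Irf7, 0.26 for Ifit2, 0.50 for Oasl2, 0.44 for Oas2, 0.22 for Rsad2, 0.51 for Cmpk2, 0.57 for Ifi35, 0.082 for Gbp3, 0.13 for Mavs and 0.10 for Ticam1, and in ERRKO_PBS against WT_PBS to 0.45 for Rsad2, 0.54 for Ifi35 and 0.21 for Ifnar2, by the shift itself. The interaction passed for 1 gene after quantile normalization, for 0 without a filter and for 4 by DESeq2. By edgeR and DESeq2 on recovered reads, 20 and 21 genes were called in ERRKO_PBS against WT_PBS, 11 and 12 in ERRKO_CL against WT_CL, 10 and 12 in WT_CL against WT_PBS, 31 and 31 in ERRKO_CL against ERRKO_PBS, and 2 and 4 for the interaction. Promoters held the ISRE core on the annotated strand alone for 6 genes.

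Leaving out each library in turn gave 13 to 26 calls in ERRKO_PBS against WT_PBS (medians 0.48 to 0.78), 8 to 14 in ERRKO_CL against WT_CL (-0.01 to 0.07), 5 to 12 in WT_CL against WT_PBS (-0.46 to -0.17), 18 to 31 in ERRKO_CL against ERRKO_PBS (-0.90 to -0.80) and 0 to 12 for the interaction (-0.54 to -0.38). Without WT_PBS replicate 3 the first median was 0.78, that of WT_CL against WT_PBS -0.17, and the interaction passed for 12 genes. It passed for 2 without ERRKO_PBS replicate 2 and for 0 without any other library. Without WT_CL replicate 2, 5 genes fell in WT. Without ERRKO_PBS replicate 1, 18 fell in ERRKO. Without the third library of both ERRKO groups, 12 rose in ERRKO_PBS, 11 fell in ERRKO_CL against ERRKO_PBS and 0 passed the interaction. The cause of these differences was not tested. With 2 libraries in a group the spread is taken from all groups.

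Replicate numbers are shared between groups, and deviations of same-numbered libraries from their group means had correlations of -0.39 to 0.45. The third libraries of WT_CL, ERRKO_PBS and ERRKO_CL had 0.45, 0.29 and 0.37 with each other. With the third WT_PBS library they had -0.21, -0.22 and -0.07. Deviations from a mean of 3 libraries cancel within a group, so these correlations cannot decide whether same-numbered libraries share more than a number. With a replicate block 20 genes were called in ERRKO_PBS against WT_PBS, 13 in ERRKO_CL against WT_CL, 9 in WT_CL against WT_PBS, 30 in ERRKO_CL against ERRKO_PBS and 1 for the interaction. Low genes such as Mx1, with 3 reads in a library, limit precision.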
